A study of Emberiza melanocephala with 4 samples.

Results

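GPI, GAPDH, ENO1 and ENO2, 4 genes for glycolytic enzymes, are described here across seasonal libraries labelled as testis of the black-headed bunting (Emberiza melanocephala), a migratory songbird. The symbol of each stood as a reference gene name in at least 1 of the 4 transcript files, and they are 4 of 2273 gene loci with a reference match in the series. Being named does not set them apart from other enzymes: they were chosen by their FPKM levels and level differences across these same libraries, which an earlier analysis had shown, so those values are a description and carry no test. RNA labelled as testis came from birds caught in the wild, and the labels give 1 library to each of 4 states of the testis, called sensitive, early stimulated, late stimulated and refractory. Age, day length and the number of birds behind a library are not given in the sources used here. As each state has a single library, no replicate error can be given, and there are no p-values.

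Glycolysis splits glucose into pyruvate in the cytosol and yields ATP without oxygen. Glucose-6-phosphate isomerase (GPI) acts near its start, glyceraldehyde-3-phosphate dehydrogenase (GAPDH) carries out its oxidation step, and enolase forms phosphoenolpyruvate close to its end. Enolase is made from paralogous genes, of which ENO1 is expressed in most tissues of mammals and ENO2 mainly in neurons and neuroendocrine cells. In the mammalian testis, Sertoli cells turn glucose into lactate that germ cells use, and in the retina photoreceptors are known for a high rate of glycolysis.

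Levels are the coverage of a gene's annotated exons by all assembled transcripts on its strand, per base of exon and scaled to the aligned bases of the library, on the FPKM scale. The aligned total was smallest for sensitive, with 120 Mb, and largest for late stimulated, with 428 Mb. A transcript that matched no reference gene appears in the files only at a mean coverage of 2.5 or more. In FPKM this floor is 20.8 for sensitive, 12.5 for early stimulated, 5.84 for late stimulated and 7.86 for refractory. Values under those floors can be missing from the files. Exons were those of the reference-matched transcripts, on scaffolds of the collared flycatcher assembly FicAlb_1.4, a different songbird. No sequence of these genes was at hand, so none is shown.

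The label testis was set against marker lists. A gene carries a name only if an assembled transcript matched the reference in at least 1 library, so an unnamed gene can still be expressed. The share of all annotated genes that carry a name was not determined. Of 28 genes of Sertoli, Leydig and peritubular cells 2 carried a name in the files, with a summed level between 2.89 and 6.50 FPKM, and of 39 germ-cell genes 4 did, with 27.2 FPKM in sensitive and 179 to 371 FPKM in the other libraries, where UCHL1, which neurons also express, made up nearly all of it. Of 40 photoreceptor and visual-cycle genes 12 carried a name, and 11 of these 12, among them PDC, PDE6H and GUCA1C, were listed at 0 in sensitive. Their summed level was 10.1 FPKM in sensitive, 1635 in early and 923 in late stimulated, and 1723 in refractory. Of 45 neuron and synapse genes 19 carried a name, with sums of 26.5, 2232, 2263 and 2043 FPKM in the same order. In sensitive, 3 of those 19 were covered. Outside sensitive, the named photoreceptor and neuron genes thus summed far above the named testis-cell genes other than UCHL1. The named markers do not bear out the label testis for those libraries. Trunk and gonadal mesoderm regulators went the other way, with 9 of 17 named and sums of 692, 136, 123 and 151 FPKM. Of 20 muscle genes 2 were named, with 274 FPKM in sensitive and at most 5.90 FPKM elsewhere, and of 20 blood and liver genes 2 were named, with 582 FPKM in sensitive and 0 in the others. These lists move between the same libraries as the enzymes below, and their part in the enzyme results was not tested. In bulk tissue, fewer cells of a type and less RNA per cell cannot be told apart.

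GPI, which interconverts glucose-6-phosphate and fructose-6-phosphate, was the most covered of the 4 genes in early stimulated, late stimulated and refractory when all exons were used. Its gene (ENSFALG00000007751) has 18 annotated exons of 2786 bases in all on the minus strand of scaffold JH603268.1, from 2075371 to 2103822. GPI stood at 87.4 FPKM in sensitive, 813 in early and 660 in late stimulated, and 1121 in refractory. Refractory was the highest library and sensitive the lowest, with a 12.8-fold gap between them. Among the genes covered in each library, GPI ranked 229 of 1507 in sensitive, 12 of 1788 in early and 13 of 1876 in late stimulated, and 8 of 1888 in refractory.

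GAPDH, which oxidises glyceraldehyde-3-phosphate and reduces NAD, followed the same order of libraries. It stood at 110 FPKM in sensitive, 739 in early and 367 in late stimulated, and 918 in refractory. The refractory level was 8.38-fold that of sensitive and 2.50-fold that of late stimulated. The gene (ENSFALG00000004817) lies on the minus strand of scaffold JH603259.1 from 1244147 to 1252064, with 11 exons of 6021 bases in all. Its annotated last exon alone has 5002 bases, or 83.1% of the exon length. In early stimulated, late stimulated and refractory, assembled transcripts covered 304 bases of that exon, while in sensitive the assembled transcript matched the annotation and was listed over all of it, at 34.4 FPKM.

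A level spread over all annotated exons therefore understates the part of GAPDH that carries most of the coverage. Over the 9 exons between the first and the last, 909 bases in all, GAPDH stood at 536 FPKM in sensitive, 3716 in early and 1846 in late stimulated, and 4455 in refractory, 4.85 to 5.03 times the values over all exons. For GPI the same ratio ran from 1.26 in sensitive to 1.301 in refractory. On internal exons GAPDH was thus above GPI in every library, at 4455 against 1459 FPKM in refractory, whereas over all exons GPI was above GAPDH in every library but sensitive. The internal-exon values were chosen after the exon profiles had been seen.

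**Figure D1:**
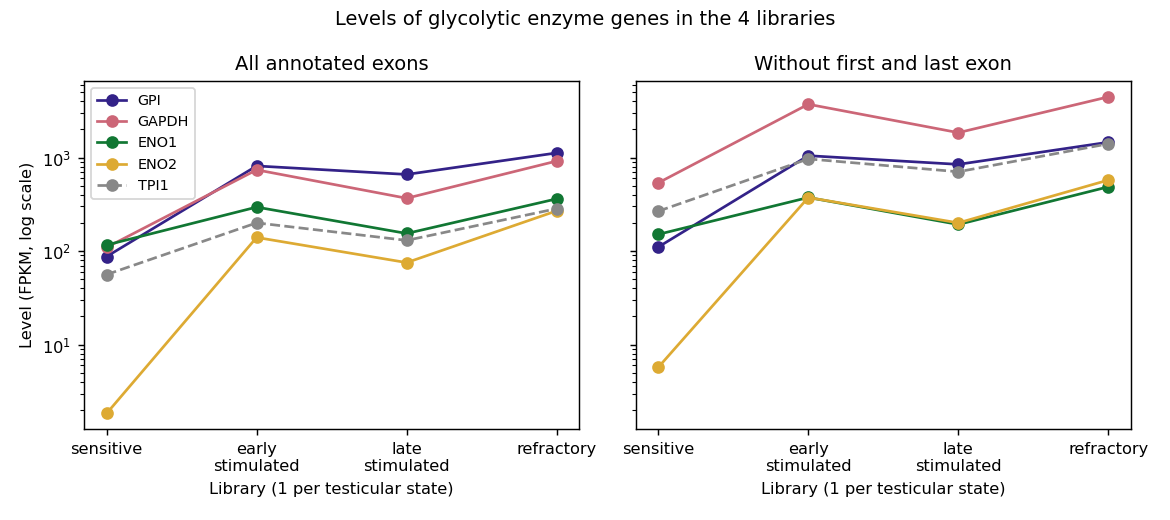
Level in FPKM, on a log axis, of GPI, GAPDH, ENO1, ENO2 and the neighbouring enzyme gene TPI1 (dashed) in the 4 libraries, over all annotated exons at left and without the first and last exon at right; each point is 1 library. Each gene is highest in refractory and lowest in sensitive, and GAPDH moves from 918 to 4455 FPKM in refractory once its end exons are left out.

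ENO1, the widely expressed enolase, had the narrowest range from its lowest to its highest library. It was at 116 FPKM in sensitive, 295 in early and 154 in late stimulated, and 362 in refractory. Over all exons ENO1 was the most covered of the 4 genes in sensitive, and its level in late stimulated was 1.33-fold that value. The gene (ENSFALG00000007360) has 12 exons of 1806 bases in all on the plus strand of scaffold JH603324.1, from 888070 to 901560.

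ENO2, the enolase known from neurons, had the widest range of levels as listed. It was at 1.84 FPKM in sensitive, 140 in early and 75.4 in late stimulated, and 269 in refractory. The gene (ENSFALG00000004665) has 12 exons of 3866 bases in all on the minus strand of scaffold JH603259.1, from 873573 to 886068. In sensitive, a single assembled transcript of 2 exons, with a coverage of 4.10 and no reference match, overlapped it, and 209 of the 3866 exon bases were covered. These bases lay in exons 8 and 9, at 3.77 and 31.5 FPKM. Exon 9 was also the highest internal exon of ENO2 in the other libraries, at 1262 FPKM for early stimulated, 675 for late stimulated and 2023 for refractory, or 40.1-, 21.4- and 64.3-fold the sensitive value. Since exons under the sensitive floor of 20.8 FPKM may go unlisted, the level of 1.84 FPKM can be too low. With every uncovered base set to the floor of its library, ENO2 came to 21.5 FPKM in sensitive. Its difference between early stimulated and sensitive then shrank from 5.63 to 2.65 on the log2(FPKM + 1) scale. That is below GPI at 3.15 and GAPDH at 2.76 in the same setting.

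Coverage differed between the exons of a gene, and the profile was much alike from library to library. For ENO2 in sensitive, with coverage in exons 8 and 9 only, this could not be judged. For GPI the internal exons ran from 82.5 FPKM in exon 15 to 2209 in exon 3 in early stimulated, and exon 15 was the lowest internal exon in every library, at 13.4 FPKM in sensitive and 301 in refractory. For GAPDH exon 8, of 79 bases, was the highest in all 4 libraries, from 1213 FPKM in sensitive to 15193 in refractory. For ENO1 exon 2 was the lowest internal exon throughout. Spearman's rho between libraries over internal exons, which share 1 gene and are no replicates, was 0.70 to 0.93 for the 16 exons of GPI, 0.78 to 0.95 for the 9 of GAPDH and 0.77 to 0.99 for the 10 of ENO1. For the 10 exons of ENO2 it was 0.84 to 0.96 among the later states and 0.39 to 0.54 between each of them and sensitive. Most internal exons of ENO2 are tied at 0 in sensitive, so the lower values cannot show a different profile. The annotated first exon was nearly uncovered in each gene, with at most 3.07 FPKM in any library.

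The direction of the larger differences was the same in most internal exons. Early stimulated was above sensitive in all 16 internal exons of GPI, all 9 of GAPDH, all 10 of ENO1 and all 10 of ENO2. Late stimulated was below early stimulated in all internal exons of GAPDH, ENO1 and ENO2, while 4 of the 16 GPI exons went the other way. Refractory was above late stimulated in 14 of 16, 9 of 9, 10 of 10 and 10 of 10 exons of GPI, GAPDH, ENO1 and ENO2. Refractory against early stimulated was less even, with refractory higher in 14 of 16, 6 of 9, 9 of 10 and 9 of 10 exons. The order refractory above early stimulated above late stimulated above sensitive held in 11 of 16, 6 of 9, 8 of 10 and 9 of 10 exons.

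**Figure D2:**
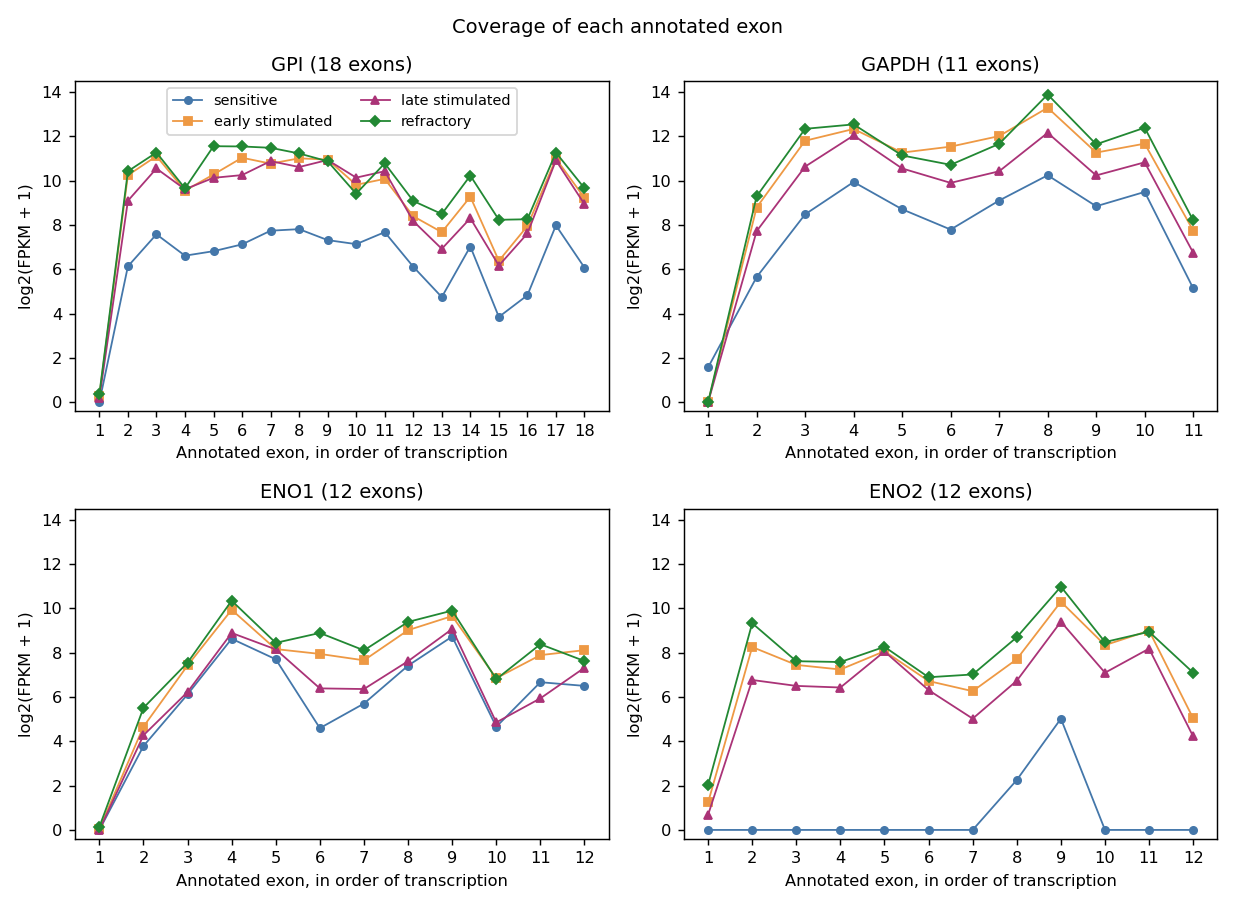
Coverage of each annotated exon as log2(FPKM + 1) against exon number in the order of transcription, with 1 panel per gene and 1 line per library. The lines of a gene run side by side, except for ENO2 in the library labelled sensitive, where 2 of 12 exons carry coverage.

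The assembled transcripts behind these values differed between libraries. GPI was assembled in full and matched the reference in early stimulated, late stimulated and refractory, but in sensitive it fell into 2 unmatched pieces of 3 and 14 exons. GAPDH matched the reference in sensitive alone, and elsewhere its transcripts of 10 exons carried no name, at 2995 FPKM for early stimulated, 1880 for late stimulated and 4699 for refractory. Early stimulated listed a further GAPDH transcript with 8 exons at 1096 FPKM, 26.8% of the GAPDH transcript FPKM there. ENO1 matched in early stimulated and refractory, and ENO2 in early stimulated and late stimulated, while ENO2 in refractory was broken into 3 unmatched pieces, and 495 of the 2405 bases of its last exon were covered. For these reasons values under the genes' own names are 0 in libraries where the exons were well covered, and they are not used as levels.

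The paralogs ENO1 and ENO2 can be compared exon by exon. Both genes have 12 annotated exons, and 9 of them, exons 3 to 11, have the same length in both, from 59 to 223 bases and 1150 bases in all. The main difference in size is the last exon, with 246 bases in ENO1 and 2405 in ENO2. Over all exons, ENO2 made up 1.56% of the summed level of both enolases in sensitive, 32.2% in early and 32.8% in late stimulated, and 42.7% in refractory. The value for sensitive rests on the 209 covered bases of ENO2, and with uncovered bases of both genes at the floor it was 15.0%, with ENO1 at 122 FPKM and ENO2 at 21.5 FPKM, while the other shares became 32.2%, 32.6% and 43.1%.

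Over the 9 exons of equal length, the mean levels of the enolases were close to each other outside sensitive. ENO1 stood at 403 FPKM and ENO2 at 380 FPKM in early stimulated, at 207 and 208 FPKM in late stimulated, and at 523 and 569 FPKM in refractory. The ENO2 share was 48.5%, 50.1% and 52.1% in these libraries. ENO2 was above ENO1 in 4 of the 9 exons in each of them. The means lean on exon 9, where ENO2 stood at 1262, 675 and 2023 FPKM and ENO1 at 805, 537 and 956 FPKM. Medians over the 9 exons were 246 FPKM for ENO1 and 208 for ENO2 in early stimulated. They were 82.9 and 106 FPKM in late stimulated, and 347 and 307 FPKM in refractory. In the library labelled sensitive, ENO1 stood at 162 FPKM and ENO2 at 6.18 FPKM, a share of 3.67%, and ENO2 was above ENO1 in 0 of the 9 exons. With exon 9 counted, the gap between the enolases over all exons in the last 3 libraries lies in the end exons. The long last exon of ENO2, at 17.6 to 136 FPKM, has the largest part in it. Without exon 9, the mean over the remaining exons of equal length is higher for ENO1 than for ENO2 in each of these libraries, so the near-equal means rest on that exon. Whether reads were shared between the paralogs was not tested. In sensitive the ENO2 coverage lay in exons 8 and 9, where ENO1 stood at 170 and 423 FPKM, while ENO2 was at 0 in exons 4 and 5, where ENO1 stood at 395 and 208 FPKM.

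**Figure D3:**
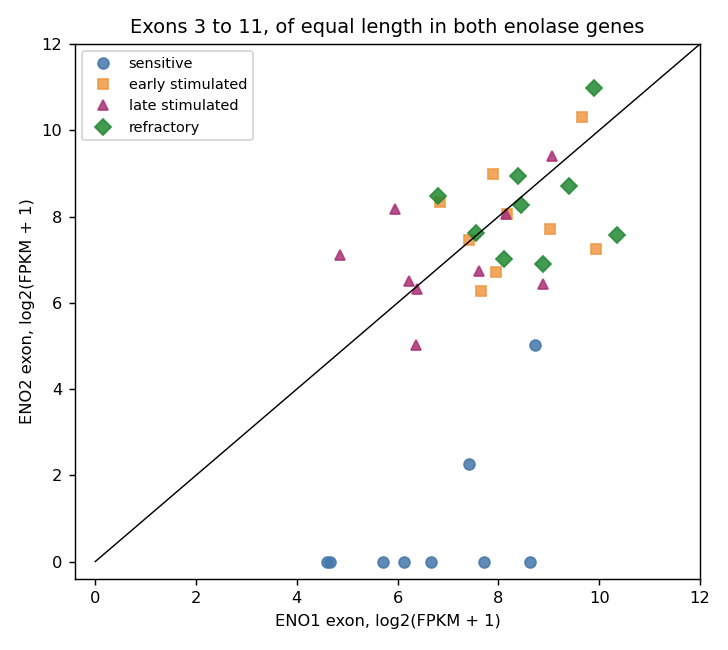
ENO2 against ENO1 in each of the 9 exons of equal length (exons 3 to 11), both as log2(FPKM + 1), with the line of equal levels; each point is 1 exon in 1 library. Points of early stimulated, late stimulated and refractory fall on both sides of the line, and 7 of the 9 points of sensitive lie at 0 for ENO2.

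The first comparison of states sets early stimulated against sensitive. All 4 genes were higher in early stimulated with a difference of 1 or more in log2(FPKM + 1), which is 2-fold once 1 is added to each value. Among all 1810 genes that reached 1 FPKM in one of the libraries, 34.5% were that much higher. That background was used in choosing the genes, and nothing is read from the count. The differences were 1.34 for ENO1, 2.74 for GAPDH, 3.20 for GPI and 5.63 for ENO2, with a median of 2.97 beside 0.11 over all genes. With uncovered bases at the floor in both libraries, 17.3% of genes were higher and 26.6% lower, against 34.5% and 25% as measured, and the 4 genes stayed past the threshold.

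From early to late stimulated the levels were lower. GAPDH passed the threshold with a difference of -1.01, ENO1 and ENO2 were at -0.93 and -0.89, and GPI was at -0.30. The lower calls took in 11.6% of 1704 genes and higher calls 10.3%, and the median over all genes was -0.08. GAPDH lay so close to the threshold that median-of-ratios scaling moved it to -0.89 and ended the call. Before the pseudocount, that scaling adds 0.12 to each gene in this comparison.

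From late stimulated to refractory the levels were higher again. ENO2 differed by 1.82, GAPDH by 1.32 and ENO1 by 1.23, all past the threshold, while GPI was at 0.76. Higher calls took in 18.8% of 1731 genes, and lower calls 10.9%. On internal exons, which leave out the last exon with its broken coverage in refractory, the ENO2 difference was 1.52. Internal exons 6 and 7 of ENO2 were also covered in part in refractory, over 70 of 134 and 127 of 223 bases, so this value is affected as well. Median-of-ratios scaling lowers each gene here by 0.19 before the pseudocount and left these calls in place. With levels taken as a share of the sum over all named genes ENO1 came to 0.96, under the threshold.

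The comparisons of the later libraries with sensitive share that 1 library, and their values are given side by side. Late stimulated was above sensitive by 2.90 for GPI, 1.74 for GAPDH and 4.75 for ENO2, with ENO1 at 0.41, where higher calls took in 33.9% of 1791 genes and lower calls 28.4%. Scaling by median of ratios would add 0.27 to each before the pseudocount. Refractory was above sensitive by 3.67 for GPI, 3.05 for GAPDH, 1.63 for ENO1 and 6.57 for ENO2, where higher calls took in 36.6% of 1830 genes and lower calls 24.8%. With uncovered bases at the floor of each library, the ENO2 differences were 1.76 in late stimulated and 3.61 in refractory.

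Levels in refractory were above those in early stimulated for each gene. Differences were 0.46 for GPI, 0.31 for GAPDH, 0.29 for ENO1 and 0.94 for ENO2, none past the threshold, beside 12.9% of 1742 genes called higher and 9.93% called lower. On internal exons ENO2 differed by 0.62.

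**Figure D4:**
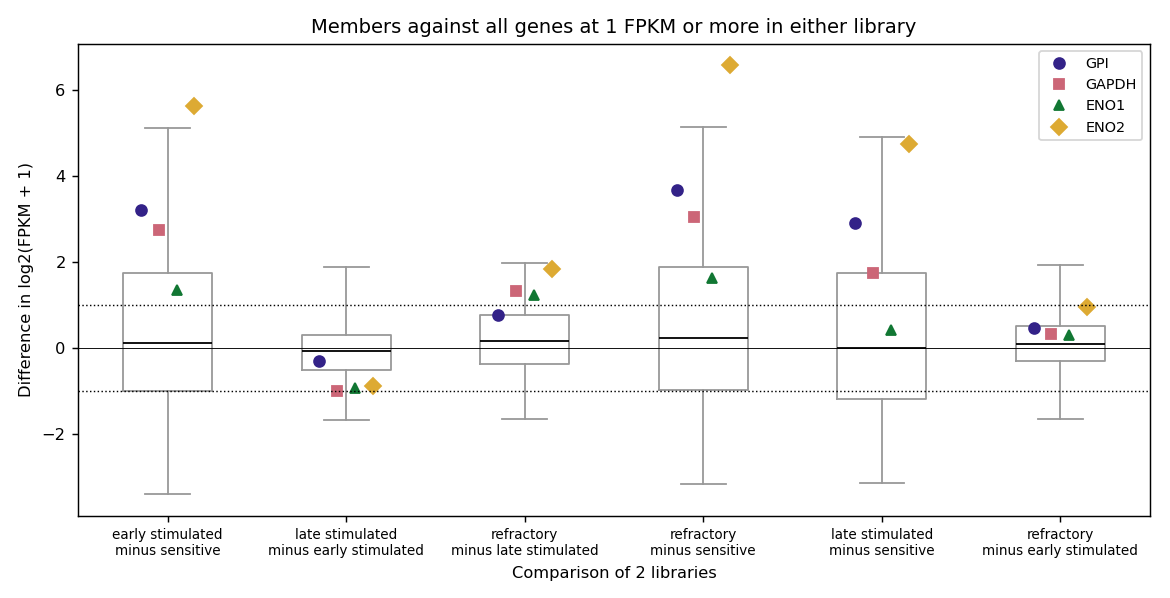
Difference in log2(FPKM + 1) for each of the 4 genes in 6 comparisons of libraries, over boxes of all genes that reached 1 FPKM in one of the libraries (box from the 25th to the 75th percentile, line at the median, whiskers from the 5th to the 95th percentile); dotted lines mark differences of 1 and -1. ENO2 lies highest in the comparisons with sensitive, at 5.63, 6.57 and 4.75, which with uncovered bases at the floor become 2.65, 3.61 and 1.76, beside 3.15, 3.61 and 2.85 for GPI, and GPI lies nearest to 0 from early to late stimulated.

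The order of the libraries, refractory above early stimulated above late stimulated above sensitive, was the same for GPI, GAPDH, ENO1 and ENO2, both over all exons and over internal exons. Of 1173 genes that were covered in all 4 libraries and reached 1 FPKM in at least 1, 130 (11.1%) had this order. The summed photoreceptor level has it too, but single genes of that list, such as GUCA1C and RBP3, do not. Over the 12 named photoreceptor genes the median difference between refractory and early stimulated was 0.09. The summed neuron level does not have the order, being highest in late stimulated.

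Other genes of glucose metabolism show how far this pattern extends among the named genes. Of 31 listed glycolysis and lactate enzymes 5 carried a name in the files, and TPI1 is the one beside the 4 described. TPI1, triose-phosphate isomerase, which turns the other product of the split sugar into the substrate of GAPDH, was at 56.1 FPKM in sensitive, 200 in early and 130 in late stimulated, and 284 in refractory. It had the same order of libraries, with 1.82 between early stimulated and sensitive and 2.32 between refractory and sensitive. Past the threshold, all 5 named enzymes were higher in early stimulated than in sensitive, where 34.5% of all genes were. From early to late stimulated 1 of 5 was lower past the threshold, against 11.6% of all genes. From late stimulated to refractory 4 of 5 were higher past it, against 18.8% of all genes, with TPI1 at 1.12 over all exons and at 0.99, under the threshold, on internal exons. As 4 of these 5 genes were chosen for their levels, nothing is read from the counts. TPI1 lies 9126 bases from ENO2 on the same scaffold and strand (JH603259.1, 895195 to 898667). GAPDH lies on that scaffold as well, 358078 bases from ENO2. In human and other vertebrates these genes also lie near each other. The other named genes within 100 kb of ENO2 were GNB3, the cone transducin subunit, at 0, 78.5, 42.1 and 98.4 FPKM, and GPR162, an orphan receptor, at 7.45 FPKM in early stimulated and 0 in the others.

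Of 31 genes of glucose and lactate transport and glycolytic control 3 carried a name. SLC16A1, a monocarboxylate transporter that moves lactate and pyruvate across the plasma membrane, was at 15.2 FPKM in sensitive, under the floor of 20.8 FPKM. In the later states it was at 153, 137 and 235 FPKM. SLC16A3, the transporter known for lactate export, was listed at 0 in sensitive, and was at 43.7, 44.1 and 27.0 FPKM in the others, the last less than 2-fold over the sensitive floor. From sensitive to early stimulated 2 of the 3 genes were higher past the threshold and 0 lower, beside 34.5% and 25% of all genes. PPP1R3C, which targets a phosphatase to glycogen, was listed at 14.0 FPKM in sensitive and at 9.24, 2.30 and 4.66 FPKM in the others. Each value lies under the floor of its own library (20.8, 12.5, 5.84 and 7.86 FPKM). No direction is therefore measurable between sensitive and early stimulated. Against late stimulated and refractory the size is poorly measured, although 14.0 FPKM in sensitive is above the floors of both. As listed, its differences from sensitive were -2.18 in late stimulated and -1.40 in refractory. The listed values thus put 2 of the 3 genes higher and 1 lower past the threshold in each of those comparisons. Beside this stand 33.9% higher and 28.4% lower of all genes in late stimulated and 36.6% and 24.8% in refractory. The lower gene is PPP1R3C, and in refractory SLC16A3, close to the sensitive floor, is among the higher.

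UGP2, which makes UDP-glucose for glycogen, was at 88.2, 84.3, 92.9 and 91.6 FPKM, the 1 named gene of 28 for gluconeogenesis and glycogen. TALDO1, transaldolase of the pentose phosphate pathway, was at 12.4, 12.3, 9.77 and 14.6 FPKM, the 1 named of 12. Neither passed the threshold in any of the 6 comparisons. TALDO1 lay under the floor in sensitive (20.8 FPKM) and in early stimulated (12.5 FPKM), so its comparisons with these libraries are poorly measured.

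Of 40 genes of pyruvate entry and the citric acid cycle 3 carried a name. MDH1, cytosolic malate dehydrogenase, was at 53.9, 30.2, 42.1 and 42.9 FPKM and stayed within the threshold in all 6 comparisons. PDP2, a phosphatase that activates pyruvate dehydrogenase, was at 22.3, 23.4, 15.6 and 36.9 FPKM and passed the threshold only from late stimulated to refractory, with 1.19. PDP1, the related phosphatase, was listed at 0 in sensitive and was at 10.8, 12.3 and 8.27 FPKM in the others, all under the sensitive floor of 20.8 FPKM, so no direction against sensitive is measurable for it.

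**Figure D5:**
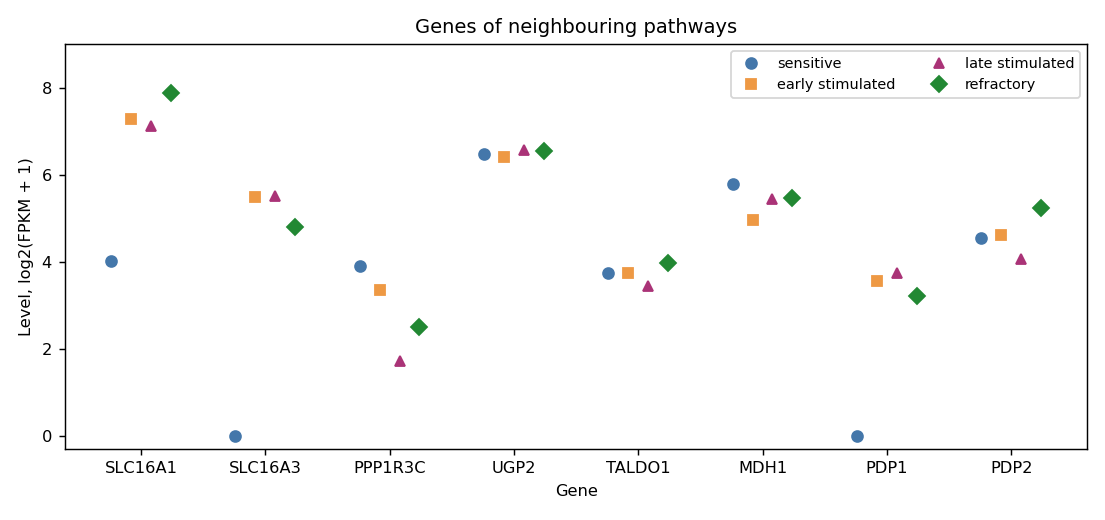
Level as log2(FPKM + 1) of the 8 other named genes of glucose transport, glycogen, the pentose phosphate pathway and pyruvate entry, with 1 point per library. SLC16A1 spans 15.2 FPKM, which is under the floor of sensitive, to 235 FPKM, while UGP2 lies between 84.3 and 92.9 FPKM in every library.

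The genes most like GPI, GAPDH and ENO1 were ranked among 849 genes with a symbol that were covered in all 4 libraries, by the root mean square difference of their centred log2(FPKM + 1) profiles over the 4 libraries. For GPI the nearest was the lactate transporter SLC16A1, at 0.088, followed by LBH, WBP2 and GPR22 at 0.12 to 0.18. For GAPDH they were NKAIN4, LINGO1, DRD1 and ELFN1, at 0.17 to 0.27, with levels of at most 36.0 FPKM. For ENO1 they were FOXJ2, GPATCH11, KCTD20 and NDNF, at 0.12 to 0.19. In sensitive, all of these nearest genes except GPATCH11, at 25.9 FPKM, lay under the floor of 20.8 FPKM. Their step from sensitive to the later states is therefore poorly measured. No member was among the 4 nearest genes of another. For GPI, GAPDH held place 21, ENO1 place 123 and ENO2 place 172. For GAPDH, GPI held place 23, ENO1 place 61 and ENO2 place 502. For ENO1, GAPDH held place 219, GPI place 560 and ENO2 place 830. Ranked for ENO2 in the same way, GPI held place 23, GAPDH place 35 and ENO1 place 123. All places that involve ENO2 lean on its 1.84 FPKM in sensitive, far under the floor. These places rest on 4 points each and changed with the processing. With a pseudocount of 10, 1 of the 4 genes nearest to GPI and 0 of those nearest to GAPDH were shared with the genes named here. On internal exons 0 were shared for GPI and 0 for GAPDH, but that setting drops every gene without an internal exon, so the genes ranked differ too.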

How the data were processed

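RNA was sequenced in 4 libraries, 1 per state. Per the labels' protocols, total RNA was taken with Tri reagent from tissue ground in liquid nitrogen. Trimmomatic is among the tools in the submitters' processing notes. The read aligner was not given in the sources used here. Per the file headers, StringTie 1.3.3b assembled each library separately, guided by Ensembl 89 annotation of FicAlb_1.4, and the sensitive library's header uses another abbreviation than its title. The deposited values are FPKM, TPM and coverage per transcript and coverage per exon, and not read counts. No scaling between libraries is recorded, and read depth per gene is unknown.

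Exon coverage was summed over listed transcripts, weighted by overlap, with Python 3.11.15 and numpy 2.4.6. Differences are in log2(FPKM + 1), a pseudocount of 1, which understates changes of low genes. A gene was called at a difference of 1 among genes that reached 1 FPKM in one of the libraries. The code was tested on a copied library with known fold changes put into chosen genes. That test covers the calculation only, and not the assembly or the floor.

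Members and lists were chosen with earlier results of these data known. Genes named are the members, all named glycolysis genes, up to 4 per other list by level, and the 4 nearest in pattern; some of these are not reported here, and others (GNB3, GPR162) were named for their position. Alternatives were the value under the gene's name, pseudocounts of 0.1 and 10, no filter or 5 FPKM in both libraries, 2 scalings, either strand, exons in at least 2 files, uncovered genes at the floor and, added after seeing the data, internal exons and uncovered bases at the floor.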

Additional observations from a re-analysis of the deposited data

How the results depend on the processing

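No paired analysis was possible because each state has 1 library, and no library could be left out of a comparison. With a pseudocount of 0.1, either strand, internal exons and uncovered bases at the floor, all 24 differences of the 4 genes kept their direction. They also kept their side of the threshold. Setting uncovered genes at the floor could not change them, since each gene was above 0 in every library. A filter only decides which differences are computed, so having no filter could not change them either. The same holds for the 21 left with 5 FPKM in both libraries. Those dropped there are ENO2 against sensitive, where it was at 1.84 FPKM. With exons in at least 2 files 18 are left, as GAPDH has no value. These could not change, since GPI, ENO1 and ENO2 each matched the reference in at least 2 files. From early to late stimulated, the count of members lower went from 1 to 0 with a pseudocount of 10, both scalings and exons in at least 2 files. Values under the genes' own names, where an unmatched gene counts as 0, were the exception. There GAPDH reversed to -6.79 in each comparison with sensitive and ENO2 to -6.24 from late stimulated to refractory. There 1 member was lower in each comparison with sensitive, from late stimulated to refractory and from early stimulated to refractory, while 1 was higher from late stimulated to refractory and 2 from sensitive to refractory. The median of the glycolysis list from late stimulated to refractory fell from 1.23 to 0.94 under the names and to 0.96 as a share of the sum over named genes. The log2(FPKM + 1) difference of ENO2 from ENO1 was 0 in sensitive, 6.24 in late stimulated and -8.50 in refractory under the names, -0.94 in late stimulated with a pseudocount of 10, and -0.00080, 0.057 and 0.24 in early stimulated, late stimulated and refractory on internal exons, where the end exons are left out. In sensitive it moved from -5.37 to -2.45 with uncovered bases at the floor. The lowest aligned total, in sensitive, sets the highest floor, so ENO2 there is the value that depth limits most.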
